A study of Mus musculus with 12 samples.

Results

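The immunoglobulin heavy chain locus, Igh, was examined in small pre-B cells of the mouse by ChIP-seq, in which chromatin fragments bound by an antibody are sequenced and clusters of reads are listed as peaks. The locus was taken as chromosome 12 from 114000000 to 118000000 of the mm9 genome, and it held 98 of the 53092 peaks in the 6 lists. It was divided by position into a constant and 3' part of 660 kb, up to 114660000, a J and intronic enhancer part of 10 kb, from 114660000 to 114670000, and a D and V part of 3.33 Mb above it. Peaks were assigned to a part by their midpoint, which gave 35, 20 and 43 peaks in that order. No measured value entered this choice, although the boundaries were drawn with earlier results of these data known.

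The cells were sorted from bone marrow as lineage-negative B220+CD43-IgM- cells of low forward scatter, on a C57BL/6 background. The labels give no genotype, sex or age for the ChIP-seq samples, although the sorting protocol names wild-type and Brwd1-Mut mice. The 3 antibodies were anti-Brwd1, against BRWD1, a reader of acetylated histones with bromodomains and WD repeats, anti-H3K9Ac, against histone H3 acetylated at lysine 9, and anti-H3S10pK14Ac, against histone H3 phosphorylated at serine 10 and acetylated at lysine 14. Each antibody had 2 biological replicates with a peak list each. Whether a replicate came from 1 animal or a pool is not given in the labels. The cell identity was not checked against marker genes, because that needs gene positions on mm9.

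B cell precursors assemble the heavy chain gene by joining a D to a J segment and then a V segment to the joined DJ, and the joining deletes the DNA between the segments. The intronic enhancer lies between the J segments and Ighm, the gene for the constant region of IgM. Ighd, the constant region gene of IgD, follows Ighm and is expressed together with it through alternative RNA processing in mature B cells. Small pre-B cells are past the joining of the heavy chain segments and are rearranging the kappa light chain genes at Igk. In the RefSeq order of genes (GRCm38.p6), the 3' neighbour Tmem121 is followed by Igha, Ighe, the 4 Ighg genes, Ighd and Ighm. After Ighm come Ighj4 to Ighj1, 20 D segments and 183 V segments, pseudogenes included in both, and then Zfp386 and Vipr2. Only names and order were taken from this table, so single peaks were not assigned to segments, exons or introns.

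The lists held between 103 and 16453 peaks, and the shortest, H3S10pK14Ac replicate 1, had 1 peak in the locus. BRWD1 had 12 and 17 peaks in the locus (replicates 1 and 2), H3K9Ac 14 and 35, and H3S10pK14Ac 1 and 19. Scores are the authors' −log10 significance of each peak and were used only within a list. The lists give no read counts, so depth is unknown and no counting error could be given for a score.

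The J and intronic enhancer part was the only part of the locus that all 6 lists marked, and it held the strong peaks. Of the 98 peaks, 6 scored 10 or more, and all 6 lay in these 10 kb: 1 and 2 of BRWD1, 1 and 2 of H3K9Ac, and 0 of H3S10pK14Ac. Across the genome such scores made up 7.72% and 3.96% of the BRWD1 lists (replicates 1 and 2), 24.8% and 14% of the H3K9Ac lists, and 7.77% and 1.98% of the H3S10pK14Ac lists. None of the 78 peaks in the constant or the D and V part reached a score of 10. The only list without a peak in these parts was H3S10pK14Ac replicate 1, which has 103 peaks in all. The peaks of the J and enhancer part spanned 6386 bp, from 114661682 to 114668067.

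**Figure D1:**
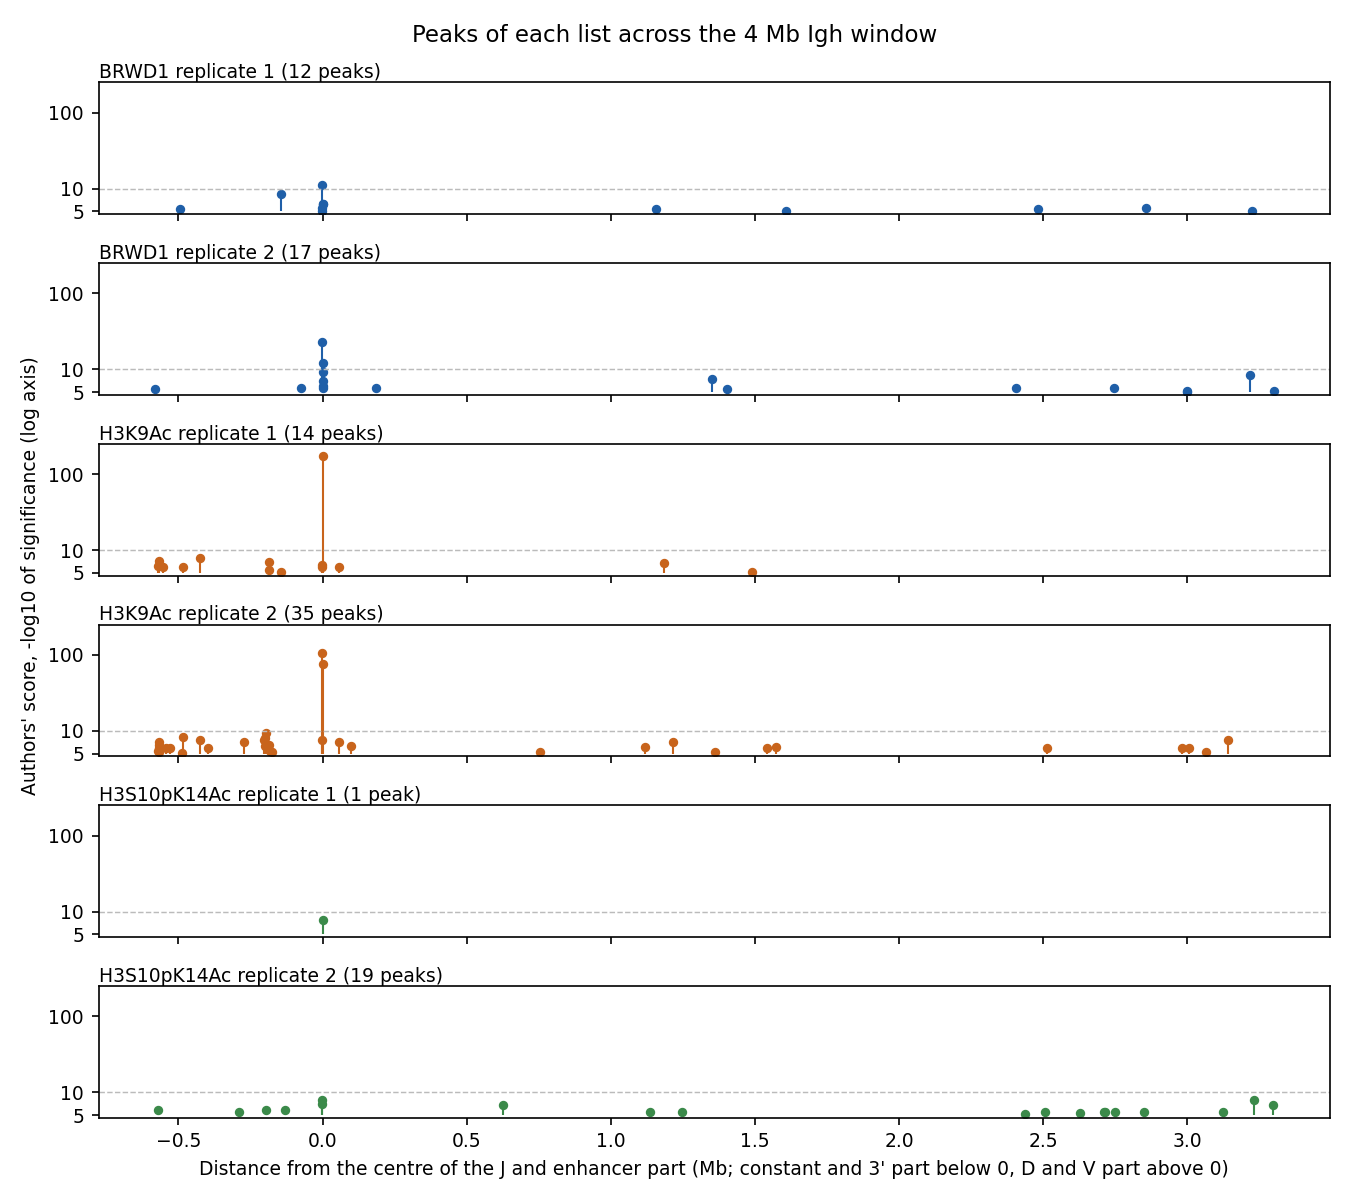
Each point is a peak, placed by its distance in Mb from the centre of the J and enhancer part (x axis) and by the authors' score on a log axis (y axis), with 1 panel for each of the 6 lists; the dashed line marks a score of 10. Points above the line occur only at the J and enhancer part, in the BRWD1 and H3K9Ac lists.

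H3K9Ac, which marks promoters and enhancers in use, covered most of this stretch in both replicates. In replicate 1 a single peak of 4669 bp ran from 114663347 to 114668015 with a score of 170.9, rank 2 of 10118. In replicate 2 the same stretch was called as 2 peaks separated by 148 bp. The first, 114662424 to 114665672, was the highest-scored peak of its list (106.6, rank 1 of 16453), and the second, 114665821 to 114668067, scored 74.9 (rank 9). Both lists thus placed the right edge of the mark within 52 bp of each other, towards the D segments. The widest H3K9Ac peak of the locus was the second widest of its list in each replicate (4669 and 3249 bp).

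A weaker H3K9Ac peak lay on the side of the constant genes, called apart from the broad peaks. In replicate 2 it stood 145 bp from the first broad peak, a gap like the 148 bp between the 2 broad peaks. It ran from 114661682 to 114662299 in replicate 1 (score 6.38) and from 114661812 to 114662278 in replicate 2 (score 7.62). These were the only peaks of the 20 in the J and enhancer part that no peak of another antibody overlapped. A further H3K9Ac replicate 1 peak, 114663055 to 114663267 (score 5.94), lay inside the broad replicate 2 peak. H3K9Ac covered 5500 and 5963 bp of the 10 kb, and 5201 bp were covered in both replicates, which was 83.1% of the 6262 bp covered in either.

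BRWD1 marked the same stretch with several separate peaks in each replicate, from 166 to 390 bp wide in replicate 1 and from 260 to 1668 bp in replicate 2. Replicate 1 had 5 peaks between 114663721 and 114666524, with scores of 5.64, 5.10, 11.1, 6.29 and 6.29 from the constant side to the D side. Replicate 2 had 6 peaks between 114662719 and 114667506, with scores of 23.3, 9.10, 11.98, 6.03, 6.93 and 5.70. The best peaks of the replicates stood at different places: 114664507 to 114664766 in replicate 1 (rank 433 of 5814) and 114662719 to 114664386 in replicate 2 (rank 80 of 9966). The replicate 1 best peak was nevertheless matched by the replicate 2 peak at 114664544 to 114664803 (score 9.10, rank 510), of the same width of 260 bp and 37 bp further on.

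Most BRWD1 peaks of replicate 1 overlapped a replicate 2 peak in this part. Of the BRWD1 peaks in the J and enhancer part, 4 of 5 (replicate 1) and 3 of 6 (replicate 2) overlapped the other replicate, against 11.8% and 6.63% of all peaks of these lists. All 11 BRWD1 peaks of the part overlapped H3K9Ac in both replicates, where 14.2% and 14.7% of all BRWD1 peaks overlapped a peak of any other antibody. By bases the BRWD1 replicates were less alike. They covered 1313 and 3876 bp, with 1091 bp in both, which was 26.6% of the 4098 bp covered in either. The whole-list shares do not allow for how densely this stretch is covered. BRWD1 replicate 2 covered 3876 of the 4788 bp its peaks span here, and H3K9Ac 5500 of 6334 and 5963 of 6256 bp. Peaks placed anywhere in the stretch would often overlap, and whether these overlaps exceed that was not tested.

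The BRWD1 peaks were wide and close together, and stood out more by bases covered than by best score. All 5 and all 6 were wider than the median of their list (71.5 and 196 bp), and the 1668 bp peak of replicate 2 was the second widest of 9966. When the genome was divided into 10 kb bins, the J and enhancer bin ranked 2 by bases under BRWD1 replicate 1 peaks and 1 under replicate 2 peaks, among 5705 and 9848 bins with a peak. By its best score the same bin ranked 405 and 73. For H3K9Ac the bin ranked 2 in each replicate by covered bases, and 3 and 1 by best score. For H3S10pK14Ac it ranked 2 and 109 by covered bases and 22 and 591 by best score, among 101 and 10458 bins with a peak. With lists of such unequal length, these ranks cannot be compared directly between the replicates. In both H3K9Ac lists and both H3S10pK14Ac lists the first bin by covered bases was chromosome 6 from 70670000 to 70680000, the strong Igk region of these lists. That Igk bin was not among the first 3 bins of either BRWD1 list, and its rank there was not taken. Besides the J and enhancer bin, the first 3 BRWD1 bins lay on chromosomes 2 and 9 (replicate 1) and on chromosome 9 (replicate 2). Of these, the bins from 98500000 on chromosome 2 and from 3000000 on chromosome 9 were also positions 2 and 3 of H3S10pK14Ac replicate 2.

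**Figure D2:**
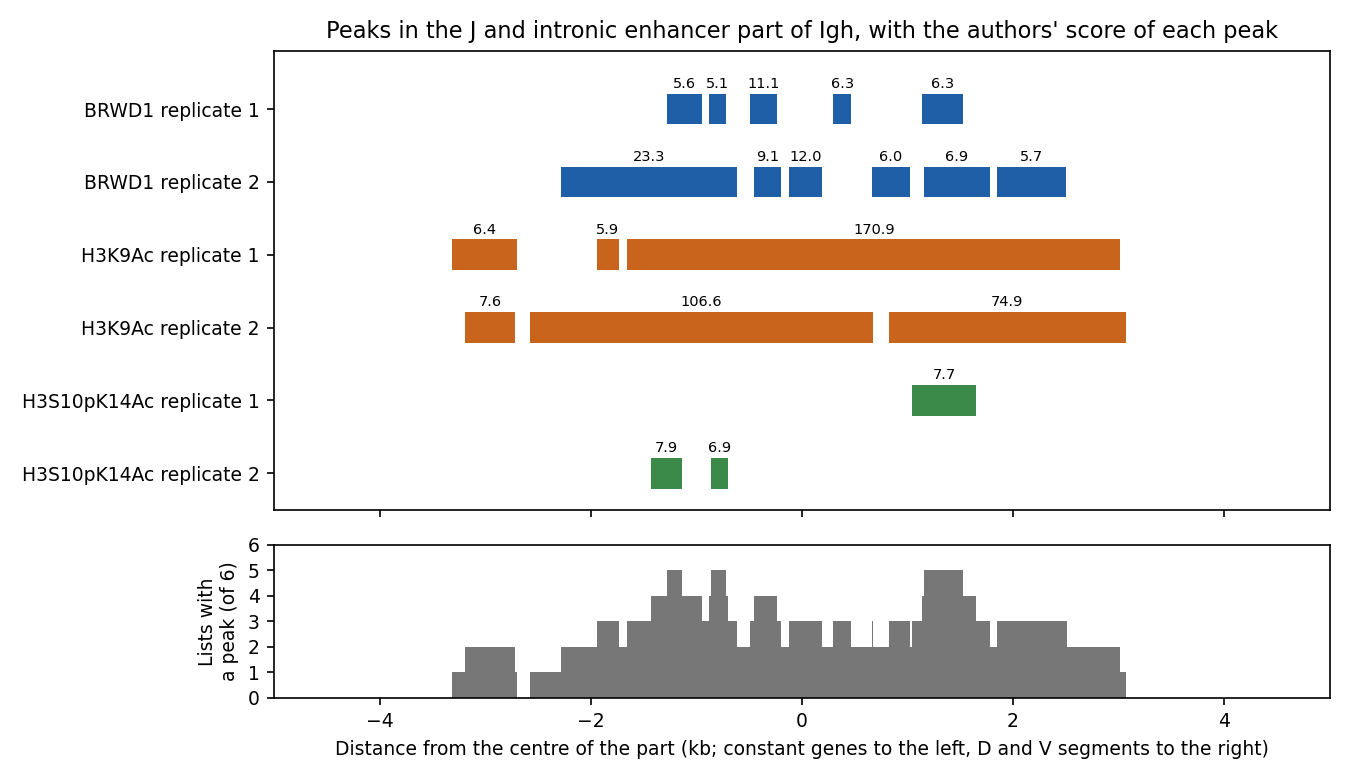
Bars are the peaks of each of the 6 lists, drawn to scale by distance in kb from the centre of the J and enhancer part (x axis), with the authors' score above each; the lower panel counts the lists with a peak at each base. The H3K9Ac bars form a domain of several kilobases. The BRWD1 bars are separate peaks, each base of which lies under an H3K9Ac bar of at least 1 replicate. The widest BRWD1 bar spans 1668 bp in replicate 2, and the H3S10pK14Ac bars of the replicates lie apart.

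H3S10pK14Ac marked the J and enhancer part in both replicates, but at places that did not overlap. Replicate 1 had its only peak of the locus at 114666041 to 114666651 (score 7.70, rank 22 of 103), on the D side. Replicate 2 had peaks at 114663567 to 114663862 (score 7.92, rank 608 of 10638) and 114664137 to 114664297 (score 6.91, rank 1376), on the constant side. A gap of 1743 bp separated the nearest of them. None of these 3 peaks therefore overlapped the other replicate, where 30.1% of replicate 1 and 0.301% of replicate 2 peaks did so over the whole lists.

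Each H3S10pK14Ac peak of the part overlapped BRWD1 and H3K9Ac peaks of both replicates. For comparison, 37.9% of all H3S10pK14Ac replicate 1 peaks and 9.95% of all replicate 2 peaks overlapped a peak of any other antibody. These whole-list shares do not allow for the dense cover of this stretch by H3K9Ac and BRWD1 replicate 2 peaks. Because the H3S10pK14Ac peaks lay apart, no base was covered in all 6 lists. A total of 661 bp was covered in 5 lists, in 3 runs. The first and second, 114663721 to 114663862 (142 bp) and 114664137 to 114664284 (148 bp), lacked H3S10pK14Ac replicate 1. The third and longest, 114666154 to 114666524 (371 bp), lacked H3S10pK14Ac replicate 2.

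**Figure D3:**
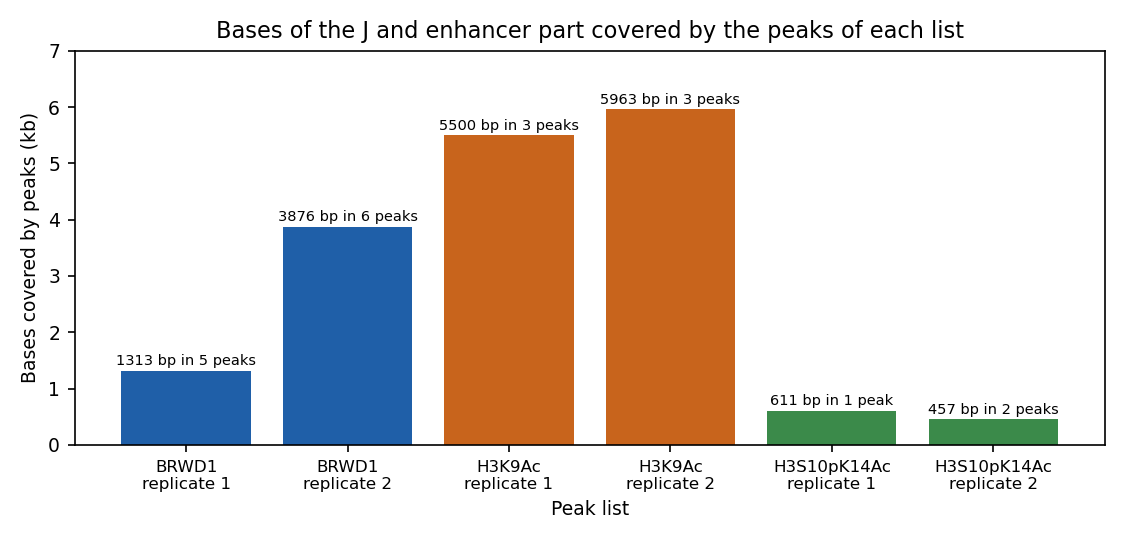
Bars give the bases in kb (y axis, from 0) of the J and enhancer part under the peaks of each list (x axis), without an error bar since each bar is 1 list. H3K9Ac covers 5500 and 5963 bp, BRWD1 1313 and 3876 bp, and H3S10pK14Ac 611 and 457 bp.

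The best peak of the part stood highest within its list for H3K9Ac, where 99.99% and 99.997% of peaks scored lower (ties counted at their midpoint). BRWD1 stood at 92.6% and 99.2%, and H3S10pK14Ac at 78.6% and 94.3%. The means of H3K9Ac, BRWD1 and H3S10pK14Ac were 99.99 ± 0.00833, 95.9 ± 4.70 and 86.5 ± 11.1 percent (SD, n = 2 lists each). H3K9Ac did not overlap the other antibodies in these values, whereas BRWD1 and H3S10pK14Ac did. With 2 lists each, an exact two-sided permutation test cannot go below p = 0.333. The exact permutation test gave p = 0.333 for H3K9Ac against BRWD1 (difference 4.11) and for H3K9Ac against H3S10pK14Ac (13.5), and p = 0.667 for BRWD1 against H3S10pK14Ac (9.42). Benjamini-Hochberg adjustment over the 3 pairs of this exact permutation test gave 0.5, 0.5 and 0.667. A percentile also depends on how many weak peaks a list holds.

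The constant and 3' part was marked mainly by H3K9Ac, with weak peaks. It held 8 and 19 H3K9Ac peaks (12.1 and 28.8 per Mb), 2 and 2 BRWD1 peaks, and 0 and 4 H3S10pK14Ac peaks. Divided by the mean density of each list over the assembled chromosomes, the H3K9Ac values were 3.09 and 4.51, those of BRWD1 1.34 and 0.783, and those of H3S10pK14Ac 0 and 1.47. Scores ran from 5.13 to 7.96 in H3K9Ac replicate 1 and from 5.04 to 9.26 in replicate 2. Of the H3K9Ac peaks, 3 of 8 and 4 of 19 overlapped the other replicate, against 43.2% and 29.2% of all peaks of these lists. No BRWD1 or H3S10pK14Ac peak of this part did. The first 0.4 Mb of the part, which by general knowledge is flanking sequence on the 3' side of the constant genes, held 5 of the 8 and 12 of the 19 H3K9Ac peaks and all 7 that overlapped the other replicate. In the rest of the part 0 of 14 peaks of all lists overlapped the other replicate (a setting added after seeing the data). H3K9Ac peaks of the 2 replicates nevertheless lay side by side there. They ran from 114479503 to 114479841 in replicate 2 and from 114479850 to 114480333 in replicate 1. H3K9Ac densities without this flank were 2.94 and 4.22 times the genome mean.

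Of the 28 regions of merged peaks in the constant and 3' part, 6 were found in more than 1 list, each with 2 lists. H3K9Ac of both replicates met at 114098300 to 114099136 (scores 7.20 in replicate 1, and 5.90 and 6.44 for the 2 replicate 2 peaks), at 114180466 to 114180754 (6.03 and 8.33) and at 114239095 to 114239517 (7.96 and 7.48). These 3 regions lie in the first 0.4 Mb, the end farthest from Ighm. The other 3 regions joined 2 antibodies. Peaks that overlapped another antibody were 1 of 8 and 2 of 19 for H3K9Ac, against 12.2% and 8.97% of the whole lists. They were 1 of 2 and 0 of 2 for BRWD1 (whole lists 14.2% and 14.7%) and 2 of 4 for H3S10pK14Ac replicate 2 (whole list 9.95%). H3K9Ac replicate 2 and H3S10pK14Ac replicate 2 met at 114468041 to 114468268 (scores 9.26 and 5.91) and at 114094292 to 114094526 (5.42 and 5.91). At 114521980 to 114522261, BRWD1 replicate 1 (score 8.42, rank 573) met H3K9Ac replicate 1 (5.13). This was the best BRWD1 peak of the part; in replicate 2 the best was 114590172 to 114590330, with a score of 5.70, the value that 38.3% of that list shares.

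Between the last peak of the constant and 3' part, which ended at 114590330, and the J and enhancer part lay 69.67 kb without a peak of any list. This is the end of the constant gene cluster where Ighm and Ighd stand in the gene order. Which constant genes the stretch holds on mm9 was not determined, and no list gave a peak to be assigned to Ighm or Ighd within it. The nearest peak beyond it was the H3K9Ac peak that starts at 114661682, inside the J and enhancer part. Counted from peak to peak, 71.4 kb on this side and 52.3 kb on the other, up to the first D and V peak at 114720403, held no peak.

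The D and V part was sparse, its peaks all scored under 10, and most were found in a single list. BRWD1 had 5 and 9 peaks there, H3K9Ac 3 and 13, and H3S10pK14Ac 0 and 13. None of the 43 overlapped a peak of another antibody, where 12.2% and 8.97% of all H3K9Ac peaks did, besides the shares given above for the other antibodies. The highest BRWD1 scores were 5.55 and 8.36, the highest H3K9Ac scores 6.78 and 7.48, and the highest H3S10pK14Ac score 7.89, in replicate 2. The best BRWD1 replicate 2 peak, 117881701 to 117881901, ranked 568, with 93.2% of its list scored lower. The best H3S10pK14Ac replicate 2 peak, 117894526 to 117894839, shared ranks 609 to 943 with peaks of equal score, directly after the 608 of the best J and enhancer peak of that list. The best peaks of the other lists were at 117521862 to 117521967 (BRWD1 replicate 1), 115847812 to 115848102 (H3K9Ac replicate 1) and 117805815 to 117806011 (H3K9Ac replicate 2).

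A single region of the D and V part was found in both replicates of an antibody. H3K9Ac peaks at 114720403 to 114721004 in replicate 1 (score 6.03) and 114720886 to 114721231 in replicate 2 (score 7.09) overlapped there, at the J-proximal end. That is 1 of 3 and 1 of 13 H3K9Ac peaks, against the 43.2% and 29.2% of the whole lists. Along the part the peaks of all lists numbered 4, 2, 10, 3, 4 and 12 in successive steps of 0.5 Mb from the J side and 8 in the last 0.33 Mb. The longest stretch without any peak was 797 kb, from 116271260 to 117068593.

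The last 0.75 Mb of the D and V part, which by general knowledge lies beyond the V segments, held 19 of its 43 peaks. For H3S10pK14Ac replicate 2 it held 8 of 13 peaks, and for BRWD1 2 of 5 and 5 of 9. H3K9Ac had 0 of 3 and 4 of 13 there. Without this flank, BRWD1 densities relative to the genome mean of each list were 0.515 and 0.401. H3K9Ac stood at 0.296 and 0.546 and H3S10pK14Ac at 0 and 0.469, so each value lay below 1.

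The D and V part had fewer peaks per Mb than the rest of chromosome 12 in all 6 lists. The BRWD1 densities relative to the genome mean were 0.665 and 0.699, against 1.02 and 1.05 on the rest of the chromosome. H3K9Ac stood at 0.229 and 0.611 against 0.823 and 0.870, and H3S10pK14Ac at 0 and 0.945 against 0.877 and 1.03. The mean difference was -0.419 ± 0.279 (SD, n = 6 lists), with an exact two-sided sign-flip permutation p of 0.0313, the smallest 6 lists can give. Adjusted over the 3 density comparisons the exact permutation p was 0.0938, so it did not pass a threshold of 0.05. The 0 of H3S10pK14Ac replicate 1 carries little, since that list has 103 peaks in all.

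By number of peaks, the constant and 3' part exceeded the D and V part in 5 of 6 lists, and in the sixth, H3S10pK14Ac replicate 1, both were at 0. The mean difference was 1.34 ± 1.63 (SD, n = 6 lists; exact permutation p = 0.0625, adjusted 0.0938) and was carried by H3K9Ac, with 2.86 and 3.90, against 0.677 and 0.0847 for BRWD1. Without H3K9Ac replicate 2 it was 0.828. By covered bases BRWD1 replicate 2 turned, with 0.568 in the constant and 3' part against 0.670 in the D and V part, which left 4 of 6 lists higher. Against the rest of chromosome 12 the constant and 3' part differed by 0.920 ± 1.70 (SD, n = 6 lists; exact permutation p = 0.313, adjusted 0.313), higher in 4 lists and lower in 2. Without H3K9Ac replicate 2 this was 0.377. When only peaks with a score of 10 or more were counted it turned to -0.774. The constant and 3' part held no such peak, while the rest of the chromosome did in each list but H3S10pK14Ac replicate 1. The lists are of 3 antibodies and may share an input library, so the p-values treat as separate lists that may not be fully independent. No source used here says how reads that fit several places were handled. The effect of repeated V segments or of DNA deleted by rearrangement on these densities was not tested.

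**Figure D4:**
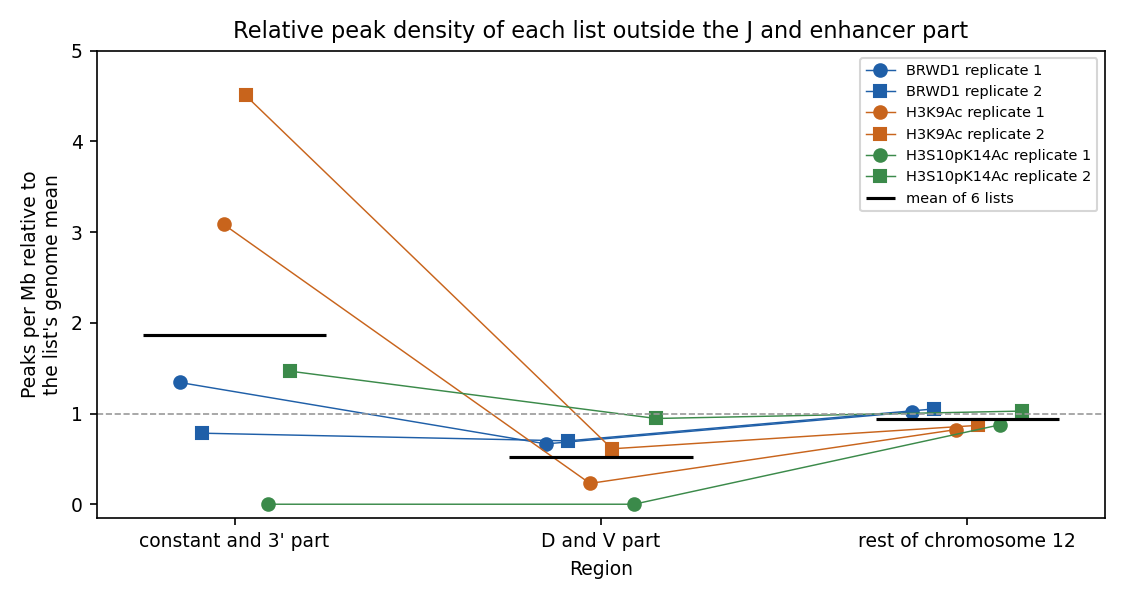
Points are the 6 lists, with the number of peaks per Mb divided by the list's genome mean (y axis) in the constant and 3' part, the D and V part and the rest of chromosome 12 (x axis); lines join a list and black bars are means over 6 lists. The D and V part lies below the rest of the chromosome in each list, and the H3K9Ac lists stand at 3.09 and 4.51 in the constant and 3' part.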

How the data were processed

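The samples were 12 in 6 groups. The 6 ChIP-seq peak lists were used; the 2 input and 4 ATAC-seq samples were not analysed here. The submitters' processing notes name Trimmomatic 0.32, BWA 0.7.5, MACS2 and Picard, with mm9 as the build; no source used here gives their roles, their settings or the control libraries. The deposited score of each peak is the authors' −log10 of its significance (p or q is not given); none is below 5, and each replicate has its own list. The commonest score of a list belonged to 18.4 to 43.4% of its peaks, so weak peaks share ranks; ranks given are the best of ties.

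Peaks of the assembled chromosomes were read with python 3.11.15, numpy 2.4.6 and pandas 2.3.3, with a first base of 1. Peaks overlapped if they shared at least 1 bp. Genome and chromosome lengths were the spans the peaks cover (2576 and 118 Mb). Density comparisons used exact sign-flip permutations over lists, and antibody comparisons exact permutations of 2 against 2. The functions for overlap and merging of peaks were tested on simulated peaks, and those for the permutation tests on small made-up sets of values. The named peaks were all peaks of the J and enhancer part, the best of each list elsewhere, and regions shared between lists. The window, its parts and these choices were made with earlier results of these data known; the last 0.75 Mb and first 0.4 Mb were set from general knowledge. Replicates are biological per the labels, which do not say whether animals were separate.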

Additional observations from a re-analysis of the deposited data

How the results depend on the processing

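With scores of 10 or more, the difference between the constant and 3' part and the rest of chromosome 12 reversed to -0.774, and the peaks overlapping the other replicate fell to 0 in the constant and 3' part, 3 in the J and enhancer part and 0 in the D and V part, by construction since few peaks are left. Within 1 kb of the other replicate lay 14 peaks of the constant and 3' part, in place of 7 that overlapped. At an overlap of 50% of the shorter peak 0 D and V peaks were shared, in place of 2. Scores of 10 or more also brought the difference between the constant and 3' part and the D and V part to 0, and that in best percentile between H3K9Ac and BRWD1 to 58.2. Without the flanks, the peaks overlapping the other replicate fell from 7 to 0 in the constant and 3' part and stayed at 2 in the D and V part. The mean density differences kept their sign with any overlap with a part, covered bases, flanks left out and unions of replicates. They also kept it with the BRWD1 and H3K9Ac lists only. None passed the threshold, but the unions and the BRWD1 and H3K9Ac lists only are too few to reach it. The constant against the D and V comparison cannot reach it either while H3S10pK14Ac replicate 1 stands at 0 in both parts. By covered bases 1 list, BRWD1 replicate 2, turned for the constant against the D and V part. The differences in best percentile kept their sign with other treatment of ties and a J and enhancer part wider by 5 kb on each side. Their p-values, from 2 lists against 2, could not reach the threshold in any setting. The overlap counts of 7, 13 and 2 were the same with the BRWD1 and H3K9Ac lists only. That setting and the overlap counts without flanks were chosen after seeing the data. Leaving out a list or a replicate number moved the density differences between 0.828 and 1.61 (constant against D and V), -0.608 and -0.231 (D and V against the rest) and 0.377 and 1.28 (constant against the rest), none past the threshold, which 5 or 3 lists cannot reach (smallest p 0.0625 and 0.25). The lowest of these came without H3K9Ac replicate 2 for both comparisons of the constant and 3' part; the value of -0.231 came without replicate 1 of all antibodies. Leaving out a replicate number moved the differences in best percentile between 0.795 and 7.42 (H3K9Ac minus BRWD1), 5.71 and 21.3 (H3K9Ac minus H3S10pK14Ac) and 4.91 and 13.9 (BRWD1 minus H3S10pK14Ac). With a replicate block, which pairs lists that share only a number, the differences stayed at 4.11, 13.5 and 9.42 with an adjusted exact p of 0.5 each, the smallest 2 pairs can give. At scores of 10 or more, the pairs with H3S10pK14Ac could not be compared in the J and enhancer part. Read depth is unknown.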
